A study of Homo sapiens with 12 samples.

Results

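A set of 43 genes whose proteins build ribosomes in the nucleolus was followed through 4 comparisons of SUM159 cells. The members were chosen by name: the snoRNP proteins, the processome and subunit assembly factors, and the subunits and partners of RNA polymerase I. That choice, like that of the other gene lists below, was made with earlier results of these data known. All 43 were found in the authors' deposited tables, out of 20477 genes that stand in all 4 tables, and all 43 carry an adjusted p-value in each. They fall into 6 role groups: 3 box C/D snoRNP proteins, 4 box H/ACA snoRNP proteins, 3 abundant nucleolar phosphoproteins, 13 factors of the small-subunit processome and its later maturation, 15 large-subunit assembly factors, and 5 genes of RNA polymerase I and rDNA transcription.

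Ribosome production starts with transcription of the rDNA repeats by RNA polymerase I into a long precursor. Small nucleolar RNAs (snoRNAs), packed with proteins into snoRNPs, guide its chemical marks: box C/D particles add methyl groups to riboses, and box H/ACA particles turn uridines into pseudouridines. The processome then cuts and folds the part that becomes the small subunit, while a separate series of GTPases, helicases and scaffold proteins assembles the large subunit. Proliferating cancer cells keep these genes high, and many of them are known targets of MYC.

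SUM159 is an established triple-negative breast cancer line. Its cells held either of 2 short hairpin RNAs, the scrambled shCTRL or shE4F1, which targets the zinc finger transcription factor E4F1, and were left untreated or given gemcitabine, a deoxycytidine analogue that blocks DNA synthesis, at 140 nM for 24 h. Polyadenylated RNA of the 4 resulting groups was sequenced in 12 libraries, 3 per group. Every group shares the cell line, its medium and the presence of a hairpin; the hairpin's sequence, its vector and whether cells were a pool or a clone were not stated in the labels. Whether replicate libraries represent separate cultures is not labelled. A p-value here therefore reflects variation among libraries alone, and that variation may be technical.

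The values below are the authors' DESeq2 results. A log2 change is the first-named group minus the second, a ratio is that change on a linear scale with a 95% interval computed here from the deposited standard error (SE), and "rose" or "fell" means an adjusted p (Wald test, Benjamini-Hochberg) under 0.05. The 12 columns of the deposited count table match no label, so values per library are not given here and overlap of the groups was not examined. In bulk RNA, less of a transcript per cell and fewer cells that hold it cannot be told apart. E4F1 itself stood at 0.503 times the shCTRL level without drug in the authors' deposited table (log2 change -0.99, SE 0.26, adjusted p = 0.000778) and at 0.532 times under gemcitabine (adjusted p = 1.47e-07).

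The line's mesenchymal markers were present in the authors' deposited tables, with a mean normalized count of VIM between 53240 and 70720. VIM fell with the hairpin in untreated cells, to 0.757 times shCTRL (adjusted p = 0.0111), and stood at 0.995 times under gemcitabine (adjusted p = 0.967). CD44, EGFR and FN1 rose with the hairpin in untreated cells, to 1.72, 1.66 and 4.29 times shCTRL, and KRT18 stood at 1.01 times (adjusted p = 0.975). The luminal markers ESR1 and CDH1 stayed at means of 13.1 or less, and PGR and EPCAM are in none of the tables. ERBB2, GATA3 and FOXA1 had means up to 2833, 587.8 and 89.6. Markers of other cell types moved with the hairpin: PTPRC, a blood cell marker with means of 42.6 to 144, stood at 0.215 times shCTRL untreated, and PECAM1, an endothelial marker, at 2.64 times, while CD3E and CDH5 are in none of the tables. Their part in the results on ribosome genes was not tested.

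Levels differed widely among the members. Per kilobase of exon, in the untreated knockdown table, the mean normalized count was highest for NPM1 (12978), NOP10 (12289), NCL (7502), DDX21 (5211) and FBL (4590). It was lowest for PPAN (31.6), TBL3 (97.0) and NOC4L (163). PPAN, with a mean normalized count of 81.7 before division by length, is the thinnest of the 43 and has the widest errors throughout. It also shares exons with the read-through gene PPAN-P2RY11, so its reads cannot be assigned with certainty. Exons of 4 members overlap another gene on the same strand and exons of 16 overlap one on the opposite strand, and the strand setting of the counting is not given in the sources used here. NPM1 has 45 named pseudogene copies in GENCODE release 29, the most of the 10 members that have any.

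Promoter sequence is shared by many members beyond what their names used. RefSeq promoters (GRCh38.p14, 250 bases before to 50 after the start) were matched by symbol for 37 of the 43. The palindrome CACGTG, the E-box bound by MYC with MAX and by other helix-loop-helix factors, is present in 17 of the 37 (45.9%). Among 11675 genes of the untreated knockdown table with a promoter it is present in 11.9%, and among all 35116 promoters in 7.26%. All 17 members hold it within 50 bases of the start, where 2.82% of all promoters do. That share counts promoters rather than genes and was not computed over the 11675 genes, so it is not a matched background. The windows of 30 bases below, written 5′ to 3′ on the strand of the gene with the motif in capitals, show it in genes of different roles whose values are described below. The genes shown all fell with the hairpin in untreated cells. LTV1, NOP10 and UTP20 also hold the motif, did not fall there and are not shown.

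WDR43: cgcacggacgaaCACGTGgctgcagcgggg
FBL: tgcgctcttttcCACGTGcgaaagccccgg
GNL2: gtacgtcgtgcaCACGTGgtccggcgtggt
GNL3: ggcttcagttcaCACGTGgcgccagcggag
RRP9: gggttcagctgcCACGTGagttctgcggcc
NOP14: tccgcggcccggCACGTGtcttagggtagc
PES1: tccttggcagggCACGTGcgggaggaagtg
BYSL: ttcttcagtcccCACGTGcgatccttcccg
NOP2: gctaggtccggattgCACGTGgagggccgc
DDX21: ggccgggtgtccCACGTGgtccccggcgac

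The first base of the motif lies at position 4 of the transcript in WDR43 (chr2:28894658-28894687, plus strand) and GNL2 (chr1:37595917-37595946, minus strand), at 7 in FBL (chr19:39846356-39846385, minus strand) and GNL3 (chr3:52686026-52686055, plus strand), and at 36 in NOP2 (chr12:6568242-6568271, minus strand). It lies 5 bases before the start in RRP9 (chr3:51941892-51941921, minus strand) and 31 before it in DDX21 (chr10:68956604-68956633, plus strand). In NOP14 (chr4:2963374-2963403, minus strand), PES1 (chr22:30591880-30591909, minus strand) and BYSL (chr6:41921515-41921544, plus strand) it begins at position 16, 14 and 29. These are matches of letters, with no binding measured.

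The letters TGACGT, searched on both strands and also counted inside the longer palindrome TGACGTCA, are the core of the ATF/CREB element and of the element known for E4F1. They share ACGT with the E-box, but no run of 6 letters is both. They are present in 9 of the 37 members (24.3%), against 13.3% of the 11675 genes and 7.98% of all promoters. They are found in TBL3, UTP15, NOC4L, DDX10 and RRP1, which lack CACGTG, and in GAR1, NOP10, GNL2 and LTV1, which hold both. TBL3, UTP15 and NOC4L are shown here, chosen with their falls in the knockdown known. In TBL3 and UTP15 the letters are read on the opposite strand (ACGTCA), and NOC4L, like DDX10 and RRP1, holds the complete palindrome.

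TBL3: gcgccggcggggACGTCAcagtggtcgcgc
UTP15: gcgtgctctggtACGTCAtcttcgcgcgac
NOC4L: tacgcgcagtggTGACGTcacgggagcgcc

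The windows lie at chr16:1972009-1972038, chr5:73565731-73565760 and chr12:132144420-132144449, all on the plus strand. Both motifs are present in 4 members and neither in 15 of those matched.

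The first comparison asks what the hairpin against E4F1 does to these genes. In untreated cells 31 of the 43 members fell and 1, POLR1A, rose, where 19.3% of the 19472 genes tested fell and 17.5% rose. Among the 12691 genes with a mean of at least 50, which all 43 members reach, 3379 fell and 2798 rose. The median log2 change of the members was -0.61, against 0.00 over all genes of the table, and 40 of the 43 values lay below 0. Under gemcitabine 29 fell and 3 rose (POLR1A, POLR1B and LTV1), with a median of -0.44, where 20.8% of the 22433 genes tested fell and 20.3% rose. Of the 13169 genes with a mean of at least 50 there, 3918 fell and 3892 rose. The 2 knockdown tables share no library. Of the members, 24 fell in both, which is 77.4% of those that fell untreated and 82.8% of those that fell under gemcitabine. Across the 43 genes the knockdown effects of the 2 tables had a Pearson r of 0.73 and a Spearman rho of 0.65, given as a description, since genes of a library are not independent. Errors were larger without drug, with a median SE over the members of 0.157 against 0.103, so the counts of the 2 tables do not rest on equal precision.

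**Figure D1:**
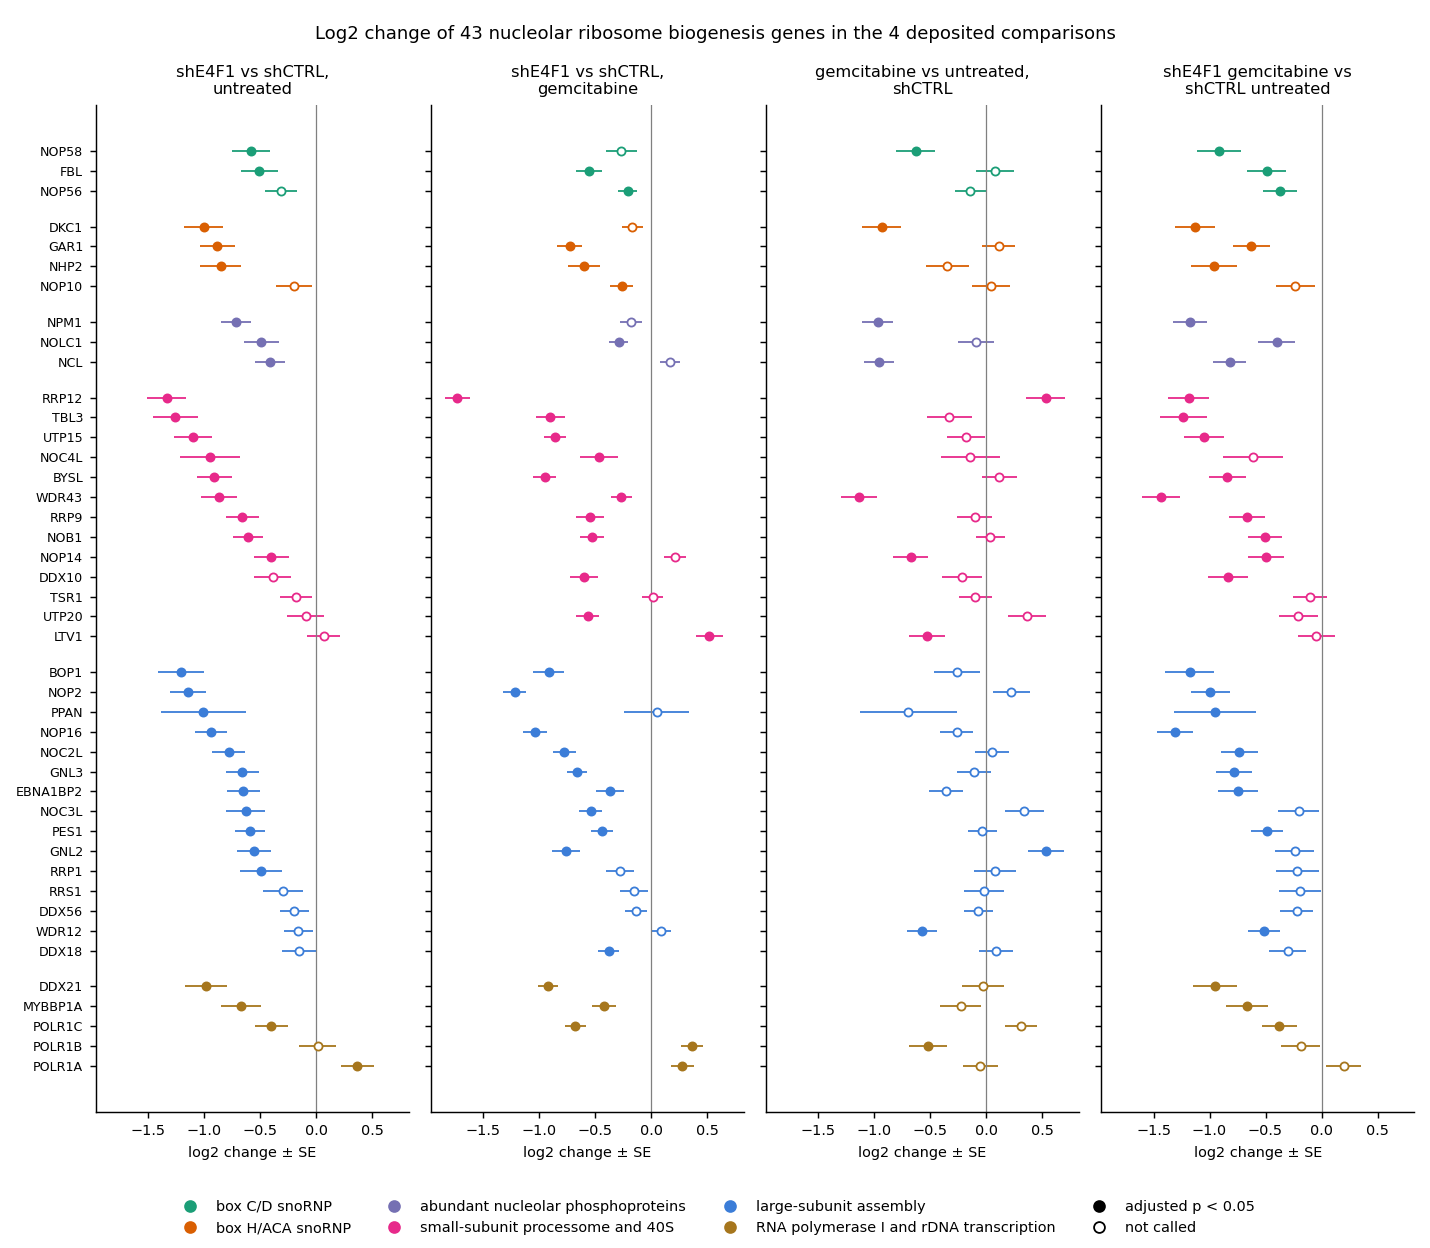
Log2 change (x axis, ± SE from the deposited tables) of each of the 43 genes, 1 gene per line and grouped by role, in the 4 deposited comparisons. Filled points have an adjusted p under 0.05: 31 members lie filled on the left of 0 in the first panel, 29 in the second, 9 in the third and 30 in the fourth.

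Of the 3 box C/D proteins, 2 fell with the hairpin in each condition. FBL, the ribose methyltransferase of the particle, stood at 0.704 times shCTRL in the authors' deposited table for untreated cells (95% interval 0.566 to 0.877) and at 0.680 times under gemcitabine (0.584 to 0.792). NOP58, a core scaffold protein, fell in untreated cells to 0.669 times (adjusted p = 0.00275), and its value under gemcitabine was 0.831 times (adjusted p = 0.118). Its partner NOP56 stood at 0.806 times untreated (adjusted p = 0.0682) and 0.865 times under gemcitabine (adjusted p = 0.0405). The interval of NOP56 under gemcitabine (0.768 to 0.973) lies within that of untreated cells (0.666 to 0.975), and the difference between conditions passed for neither NOP58 nor NOP56 (adjusted p = 0.536 and 0.858, normal test on the 2 tables).

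Of the 4 box H/ACA proteins, 3 fell in each condition. DKC1, the pseudouridine synthase that is also a telomerase component, fell to 0.498 times shCTRL in untreated cells (95% interval 0.393 to 0.632, adjusted p = 1.13e-07) in the authors' deposited table, but stood at 0.890 times under gemcitabine (adjusted p = 0.131). GAR1 fell to 0.543 and 0.604 times in the 2 conditions, and NHP2 to 0.554 and 0.660 times. NOP10, the smallest protein of the particle, had a ratio of 0.871 untreated (adjusted p = 0.365) and fell to 0.834 times under gemcitabine (adjusted p = 0.0295). Within this particle DKC1 had the lowest ratio of the 4 without drug and the highest with it, but these ranks are not resolved. Untreated, its interval overlaps those of GAR1 (0.439 to 0.671) and NHP2 (0.432 to 0.711) and lies below that of NOP10 (0.699 to 1.08). Under gemcitabine the interval of DKC1 (0.787 to 1.01) overlaps those of NOP10 (0.724 to 0.960) and NHP2 (0.541 to 0.805). It lies above that of GAR1 (0.519 to 0.704) there.

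All 3 abundant phosphoproteins fell in untreated cells. Nucleophosmin (NPM1), a histone and assembly chaperone, fell to 0.610 times shCTRL in the authors' deposited table (adjusted p = 1.08e-06), nucleolin (NCL), which binds the precursor rRNA, to 0.751 times (adjusted p = 0.00909), and NOLC1, a chaperone of snoRNPs, to 0.713 times (adjusted p = 0.00673). Under gemcitabine only NOLC1 passed the test, at 0.817 times (adjusted p = 0.00303). The values there were 0.883 for NPM1 (adjusted p = 0.151) and 1.12 for NCL (adjusted p = 0.13).

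The small-subunit group held the strongest change of the 43. RRP12, a HEAT-repeat protein needed for export of the small-subunit precursor, lies on chromosome 10 from 97356358 to 97426076, minus strand. It fell to 0.397 times shCTRL in untreated cells (95% interval 0.313 to 0.502, adjusted p = 4.68e-13) and to 0.301 times under gemcitabine (0.259 to 0.350, adjusted p = 2.65e-53) in the authors' deposited tables. TBL3 and UTP15, scaffold proteins of the early processome, fell to 0.418 and 0.466 times untreated and to 0.535 and 0.550 times under gemcitabine. BYSL, which accompanies the small-subunit precursor to the cytoplasm, fell to 0.533 and 0.517 times. All 4 of these genes fell in both tables.

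Of the other 9 factors of this group, 7 fell in at least 1 of the 2 tables. NOC4L fell to 0.518 times untreated and 0.724 times under gemcitabine, RRP9, a protein bound to U3 snoRNA, to 0.634 and 0.683 times, and NOB1, the nuclease of the last small-subunit rRNA cut, to 0.657 and 0.695 times, in the authors' deposited tables. WDR43, a processome scaffold, fell to 0.547 times untreated (adjusted p = 7.4e-07) and to 0.831 times with drug (adjusted p = 0.014). The helicase DDX10 and the large scaffold UTP20 fell under gemcitabine, to 0.659 and 0.674 times; untreated, their ratios were 0.766 (adjusted p = 0.0521) and 0.938 (adjusted p = 0.723), and the difference between conditions did not pass for either (adjusted p = 0.695 and 0.139, normal test on the 2 tables).

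NOP14, LTV1 and TSR1 did not fall under gemcitabine. NOP14, an early processome protein, fell untreated to 0.757 times (adjusted p = 0.0313) and had a ratio of 1.16 under gemcitabine (adjusted p = 0.0654) in the authors' deposited tables. LTV1, which leaves the particle late in its maturation, was at 1.05 times untreated (adjusted p = 0.779) and rose to 1.43 times under gemcitabine (adjusted p = 5.98e-05). TSR1, a GTPase-like factor that blocks premature use of the subunit, showed ratios of 0.882 and 1.01 and passed in neither table.

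In large-subunit assembly 11 of 15 genes fell without drug and 10 of 15 with it, and none rose. NOP2, an rRNA cytosine methyltransferase on chromosome 12 from 6556863 to 6568691, minus strand, fell to 0.452 times untreated (95% interval 0.363 to 0.565) and to 0.429 times under gemcitabine (0.375 to 0.491) in the authors' deposited tables. NOP16 fell to 0.522 and 0.488 times. NOP2 and RRP12 are the 2 members that fell by at least 1 on the log2 scale in both knockdown tables.

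In the PeBoW complex the proteins BOP1, PES1 and WDR12 bind each other during processing of the large-subunit rRNA. Their transcripts did not change alike, and the complex itself was not measured. BOP1 fell to 0.433 times untreated (adjusted p = 5.23e-08) and 0.530 times under gemcitabine, and PES1 to 0.665 and 0.739 times, in the authors' deposited tables. WDR12 had ratios of 0.896 (adjusted p = 0.372) and 1.06 (adjusted p = 0.507). The intervals of BOP1 (0.328 to 0.572) and WDR12 (0.750 to 1.07) in untreated cells do not overlap.

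Among the nucleolar GTPases, GNL3 (nucleostemin) fell to 0.634 and 0.632 times and GNL2 to 0.682 and 0.589 times, untreated and with drug, in the authors' deposited tables. NOC2L and NOC3L, which form transport complexes with the precursor, fell to 0.582 and 0.648 times untreated and to 0.584 and 0.688 times under gemcitabine. EBNA1BP2, a scaffold of the early particle, fell to 0.637 and 0.775 times. These 5 genes fell in both conditions. The widest differences between conditions among them were those of EBNA1BP2 (0.28 on the log2 scale, SE 0.20, adjusted p = 0.525, normal test on the 2 tables) and GNL2 (-0.21, SE 0.20, adjusted p = 0.682), and neither passed.

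The remaining large-subunit genes changed little or in 1 table. RRP1 fell untreated to 0.711 times (adjusted p = 0.0249) and stood at 0.825 times under gemcitabine (adjusted p = 0.0638) in the authors' deposited tables. The helicase DDX18 fell under gemcitabine, to 0.769 times, and had an untreated ratio of 0.901 (adjusted p = 0.486). The difference between conditions passed for neither gene (adjusted p = 0.735 for RRP1 and 0.600 for DDX18, normal test on the 2 tables). PPAN fell untreated to 0.498 times, with a wide interval of 0.298 to 0.832 (adjusted p = 0.0239), and had a ratio of 1.03 under gemcitabine with an interval of 0.700 to 1.52. RRS1 and the helicase DDX56 passed in neither table, with ratios between 0.815 and 0.912. With TSR1, they are the 3 members called in none of the 4 deposited tables.

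The RNA polymerase I group split by gene. POLR1A, the largest catalytic subunit, rose to 1.29 times shCTRL untreated (95% interval 1.06 to 1.57, adjusted p = 0.0354) and to 1.21 times under gemcitabine (adjusted p = 0.0194) in the authors' deposited tables, the 1 member that rose in both. POLR1B, the other catalytic subunit, was at 1.01 times untreated (adjusted p = 0.959) and rose to 1.29 times under gemcitabine (adjusted p = 0.00112). POLR1C, which is shared with RNA polymerase III, fell to 0.757 and 0.624 times. DDX21, a helicase that couples rDNA transcription to rRNA processing, fell to 0.507 times untreated (adjusted p = 1.59e-06) and 0.527 times under gemcitabine (adjusted p = 5.53e-24), and MYBBP1A, a nucleolar repressor and processing factor, to 0.628 and 0.746 times.

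**Figure D2:**
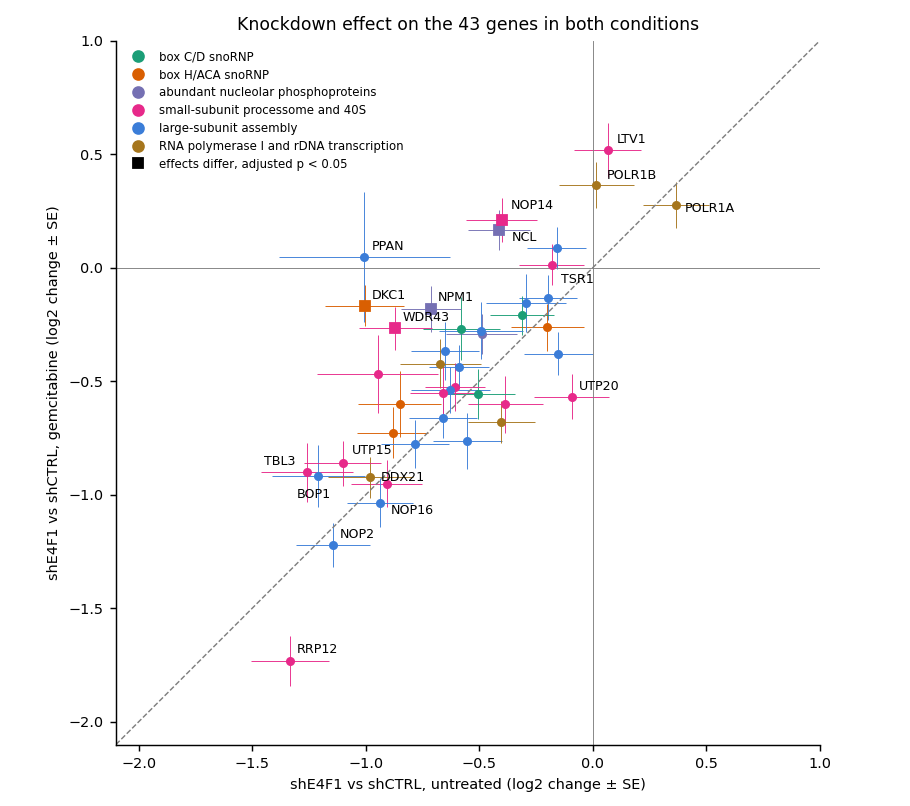
Knockdown effect of each of the 43 genes in untreated cells (x axis) against that under gemcitabine (y axis), both as log2 change ± SE, coloured by role, with the dashed line marking equal effects. RRP12 and NOP2 lie lowest, and the 5 squares above the dashed line (DKC1, NCL, NPM1, NOP14 and WDR43) are the genes whose effects differed with an adjusted p under 0.05.

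Members were also set side by side by promoter letters. Of the 17 with CACGTG, 14 fell untreated, and under gemcitabine 15 fell and 1 (LTV1) rose. Of the 20 matched members without it, 13 fell and 1 rose untreated, and 10 fell and 2 rose under gemcitabine. The median log2 changes were -0.65 and -0.55 untreated and -0.55 and -0.24 under gemcitabine. Of the 9 members with TGACGT, 6 fell untreated, and 7 fell and 1 rose under gemcitabine, with medians of -0.55 and -0.60. Of the 28 matched members without it, 21 fell and 1 rose untreated, and 18 fell and 2 rose under gemcitabine, with medians of -0.64 and -0.43. These splits were made with the knockdown values known and are given as a description.

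Gemcitabine given to shCTRL cells changed fewer of the members. Among the 43, 9 fell and 2 rose in the authors' deposited table, where 13.5% of the 20002 genes tested fell and 14.5% rose, and the median log2 change was -0.10 against -0.01 over all genes. Centred on the median of genes with a mean of at least 50, 4 rose and 9 fell. Of the 13079 genes at that mean, 2519 fell and 2189 rose without centring. The count of falls is near the share of those genes, and nothing is read from it about the set. WDR43 fell to 0.454 times its untreated level (95% interval 0.365 to 0.566, adjusted p = 9.45e-11), the only member with a log2 change of at least 1, at -1.14 (SE 0.16).

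After WDR43, the lowest ratios were those of NPM1, NCL and DKC1. NPM1 fell to 0.510 times the untreated level (adjusted p = 1.5e-10), NCL to 0.514 times (adjusted p = 5.4e-11) and DKC1 to 0.523 times (adjusted p = 1.93e-06) in the same comparison of the authors' deposited tables. NOP14, NOP58, WDR12, LTV1 and POLR1B fell to between 0.626 and 0.697 times. The 2 that rose were RRP12, to 1.44 times (95% interval 1.14 to 1.83, adjusted p = 0.0118), and GNL2, also to 1.44 times (1.16 to 1.79, adjusted p = 0.00519).

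By role, 1 of 3 box C/D, 1 of 4 box H/ACA, 2 of 3 phosphoprotein, 3 of 13 small-subunit, 1 of 15 large-subunit and 1 of 5 RNA polymerase I genes fell. FBL (1.05 times), GAR1 (1.08 times) and NOP10 (1.03 times) did not pass, nor did the polymerase subunits POLR1A (0.963 times) and POLR1C (1.24 times, adjusted p = 0.0983) in the authors' deposited table. The members of a particle thus differed in this comparison: within the box H/ACA particle the interval of DKC1 (0.412 to 0.664) lies below those of GAR1 (0.879 to 1.32) and NOP10 (0.821 to 1.29). That of NHP2 (0.605 to 1.02) overlaps all of them.

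Among the members, 4 were called in opposite directions in different tables: RRP12 and GNL2 fell with the hairpin and rose with gemcitabine, while LTV1 and POLR1B rose with the hairpin under gemcitabine and fell with gemcitabine in shCTRL cells. These tables share libraries, the shCTRL untreated ones for the first pair and also the shCTRL gemcitabine ones for all 4 genes. A deviation of a shared library enters both tables, so the opposite signs are not independent observations.

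Several of the genes lowered by gemcitabine hold snoRNA genes between their start and end, a feature noticed after the values were seen. Whether these lie in introns was not checked. GENCODE release 29 places snoRNA or scaRNA genes inside 9 members on the same strand: NOP56, NOP58, DKC1, NCL, WDR43, TSR1, GNL3, PPAN and POLR1C. Of these 9 genes, 4 fell with the drug in the authors' deposited table, with a median log2 change of -0.63. Of the 34 others, 5 fell and 2 rose, with a median of -0.06. Outside the set, 205 protein-coding snoRNA host genes with a mean of at least 50 had a median of -0.27, with 74 down and 19 up. Over all 13079 genes at that mean the median was -0.06, with 2519 down and 2189 up. Ribosomal protein genes were not taken out of the 205. How many of the 79 cytosolic ones, all below 0 in this comparison, are among the 205 was not counted. NPM1, among the most lowered, hosts none in this annotation, and POLR1C, which hosts a scaRNA, had the highest value of the 9. These counts are a description with no test.

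**Figure D3:**
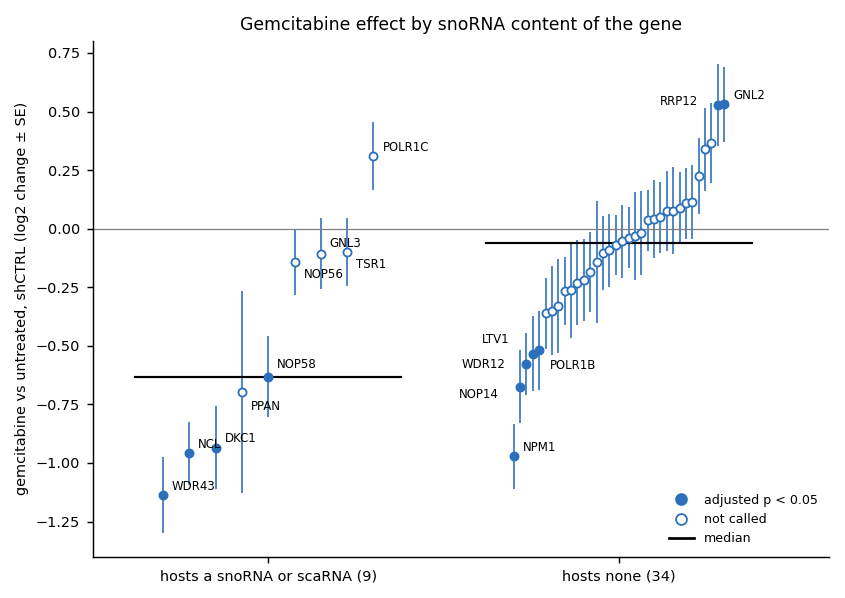
Log2 change with gemcitabine in shCTRL cells (y axis, ± SE) of the 9 members that host a snoRNA or scaRNA and the 34 that host none, each sorted by value, with a line at each median (-0.63 and -0.06). WDR43, NCL, DKC1 and NOP58 are the filled points among the hosts, and NPM1 is the lowest of the others.

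With both changes together, shE4F1 cells under gemcitabine against untreated shCTRL cells, 30 of 43 members fell and none rose, where 16.3% of the 19724 genes tested fell and 15.8% rose in the authors' deposited table. Of the 12868 genes with a mean of at least 50, 2977 fell and 2447 rose. At an unadjusted p under 0.05 there were 31 members, all lower. The median was -0.63, against 0.00 over all genes. The lowest were WDR43 at 0.371 times (95% interval 0.295 to 0.467, adjusted p = 1.74e-15) and NOP16 at 0.404 times (adjusted p = 1.2e-14). TBL3 stood at 0.425, RRP12 at 0.440, BOP1 at 0.442, NPM1 at 0.443, DKC1 at 0.457 and UTP15 at 0.483 times. Of these 8, TBL3, RRP12, BOP1, DKC1 and UTP15 were also lower by at least 1 on the log2 scale with the hairpin alone in untreated cells. WDR43, NOP16 and NPM1 were not, at -0.87, -0.94 and -0.71 there.

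Beside these 8 genes, each lower by at least 1 on the log2 scale, NOP2 stood at 0.502 times and NHP2 at 0.514 times in the authors' deposited table. DDX21, at 0.518 times, and NOP58, at 0.530 times, followed. The highest value was that of POLR1A, 1.15 times (adjusted p = 0.372), the only member above 1. LTV1 (0.969 times, adjusted p = 0.877) and POLR1B (0.878 times, adjusted p = 0.451) did not pass in this table. GNL2, UTP20 and NOC3L, whose values with gemcitabine alone were 1.44, 1.29 and 1.27 times, stood at 0.847, 0.865 and 0.868 times and did not pass either.

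No deposited table compares gemcitabine with no drug in shE4F1 cells, so that effect was taken as the table of both changes minus the untreated knockdown table. None of the 43 members passed (two-sided normal test, Benjamini-Hochberg over 21080 genes), where 0.185% of all genes were lower and 0.925% higher. At an unadjusted p under 0.05 there were 3: WDR43 at 0.678 times (95% interval 0.494 to 0.932), NPM1 at 0.726 times (0.551 to 0.958) and NCL at 0.754 times (0.574 to 0.990). The SE of this difference counts the shCTRL untreated libraries, which cancel, in both tables and is therefore too large, with a median of 0.232 over the members. How far the lack of calls reflects that precision was not tested. The members' median log2 change was 0.01.

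Whether the hairpin's effect differed with the drug was tested on the knockdown effect with drug minus the knockdown effect without it. Of the 43 members, 5 had a positive difference that passed and none a negative one (two-sided normal test, Benjamini-Hochberg over 20923 genes), where 2.81% of all genes were called positive and 2.63% negative. Of the 12578 genes with a mean of at least 50, 569 were called positive and 397 negative. Among the members DKC1 had the largest called difference, 0.84 on the log2 scale (SE 0.20, adjusted p = 0.00142). NOP14 followed with 0.61 (adjusted p = 0.0223), WDR43 with 0.60 (adjusted p = 0.0292), NCL with 0.58 (adjusted p = 0.0124) and NPM1 with 0.53 (adjusted p = 0.0335). The call of NPM1, NOP14 and WDR43 is lost when each table is centred on the median of its genes with a mean of at least 50 (adjusted p = 0.0976, 0.0648 and 0.0790), since the median difference of those genes was 0.08.

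For all 5 genes the hairpin lowered the level in untreated cells, and its effect was smaller or not detected under gemcitabine. The knockdown ratios of NOP14 and NCL under gemcitabine lay above 1, at 1.16 and 1.12, and neither passed. Among genes with a mean of at least 50, NOP14 was called up there (Wald test, adjusted p = 0.0458). The difference between the knockdown effects can also be read along the drug. DKC1 had a gemcitabine ratio of 0.523 in shCTRL cells and 0.917 in shE4F1 cells (95% interval 0.651 to 1.29), NOP14 one of 0.626 and 0.938, and WDR43 one of 0.454 and 0.678. NCL had 0.514 and 0.754, and NPM1 had 0.510 and 0.726. The shCTRL untreated libraries enter both of these ratios.

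At an unadjusted p under 0.05, 8 members differed: the 5 above, PPAN (1.05, SE 0.47, adjusted p = 0.206) and LTV1 (0.45, adjusted p = 0.161) with a positive difference, and UTP20 (-0.48, adjusted p = 0.139) with a negative one. RRP12, the gene with the strongest knockdown effect, had a difference of -0.40 (SE 0.21, adjusted p = 0.312). NOC2L (0.0066), GNL3 (-0.0036) and BYSL (-0.04) lay nearest to 0, each with an SE of 0.17 to 0.19. The median over the members was 0.15, against 0.04 over all genes and 0.08 over genes with a mean of at least 50. Of the members' differences 30 of 43 lay above 0, as did 7525 of 12578 of genes at that mean.

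**Figure D4:**
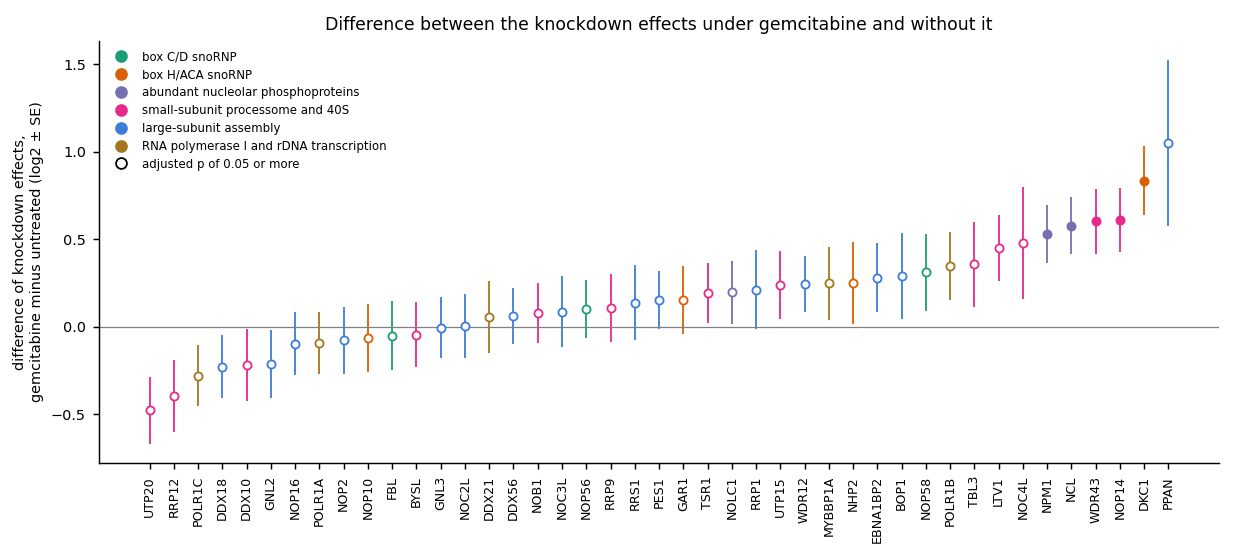
Difference between the knockdown effects under gemcitabine and without it (y axis, log2 ± SE) for the 43 genes in order of the difference, coloured by role. The 5 filled points have an adjusted p under 0.05 and lie between 0.53 and 0.84; PPAN lies higher, at 1.05, with the widest error.

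The rest of the pathway was read from 5 lists of 120 other ribosome biogenesis genes, also chosen with earlier results of these data known. With the hairpin in untreated cells 62 of the 120 fell and 2 rose, with a median log2 change of -0.39 in the authors' deposited table, and under gemcitabine 72 fell and 5 rose, with a median of -0.35. By list, untreated, 23 of 42 other processome and small-subunit factors, 19 of 43 other large-subunit factors, 7 of 13 other RNA polymerase I subunits and factors, 6 of 13 nuclear exosome genes and 7 of 9 snoRNP assembly genes fell. Under gemcitabine the counts were 24, 25, 9, 7 and 7. The single genes with the largest falls were EIF6, which keeps the large subunit from joining the small one too early, at 0.345 and 0.260 times, and RCL1, a processome protein, at 0.334 and 0.366 times.

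In the lists of polymerase, exosome and snoRNP assembly genes none rose untreated, and UBTF alone rose under gemcitabine. Some of the extremes of the lists are given here, and others are left out. Among those left out, DDX24 rose with the hairpin untreated, to 1.37 times. TAF1D fell to 0.419 times in shE4F1 cells under gemcitabine against untreated shCTRL cells. TAF1A, a subunit of the promoter selectivity factor of RNA polymerase I, fell with the hairpin to 0.471 times untreated and 0.388 times under gemcitabine in the authors' deposited tables. UBTF, which binds the same promoters, rose to 1.69 times under gemcitabine (adjusted p = 2.21e-14). In shCTRL cells gemcitabine moved the 2 in the other direction, TAF1A to 1.87 times and UBTF to 0.604 times, in a table that shares the shCTRL gemcitabine libraries. EXOSC6, of the exosome core, fell with the hairpin to 0.354 and 0.403 times, and NUFIP1, which helps to assemble box C/D particles, to 0.485 and 0.549 times. UTP3 rose with it, to 1.61 and 1.33 times.

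Genes of the ribosome's own proteins followed another pattern. With the hairpin in untreated cells 6 of 79 cytosolic ribosomal protein genes fell and 3 rose, with a median log2 change of 0.01, and under gemcitabine 3 fell and 42 rose, with a median of 0.30 in the authors' deposited table. With gemcitabine in shCTRL cells 50 of 79 fell and none rose, with a median of -0.41, and all 79 values lay below 0. The 120 other biogenesis genes had a median of -0.0042 in that comparison, with 18 down and 12 up. Over all genes tested, 19.3% fell and 17.5% rose with the hairpin untreated, and 20.8% and 20.3% under gemcitabine. With gemcitabine in shCTRL cells 13.5% fell and 14.5% rose. The shCTRL gemcitabine libraries enter both the comparison with 42 up and that with 50 down. Their opposite signs are therefore not independent observations. The difference of knockdown effects passed for 2 of the 79, both positive. Ribosomal protein genes have many near-identical pseudogene copies, so the counting could split their reads. RPS3A stood apart from the others of its list, at 0.422 times with the hairpin untreated and 0.448 times under gemcitabine.

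**Figure D5:**
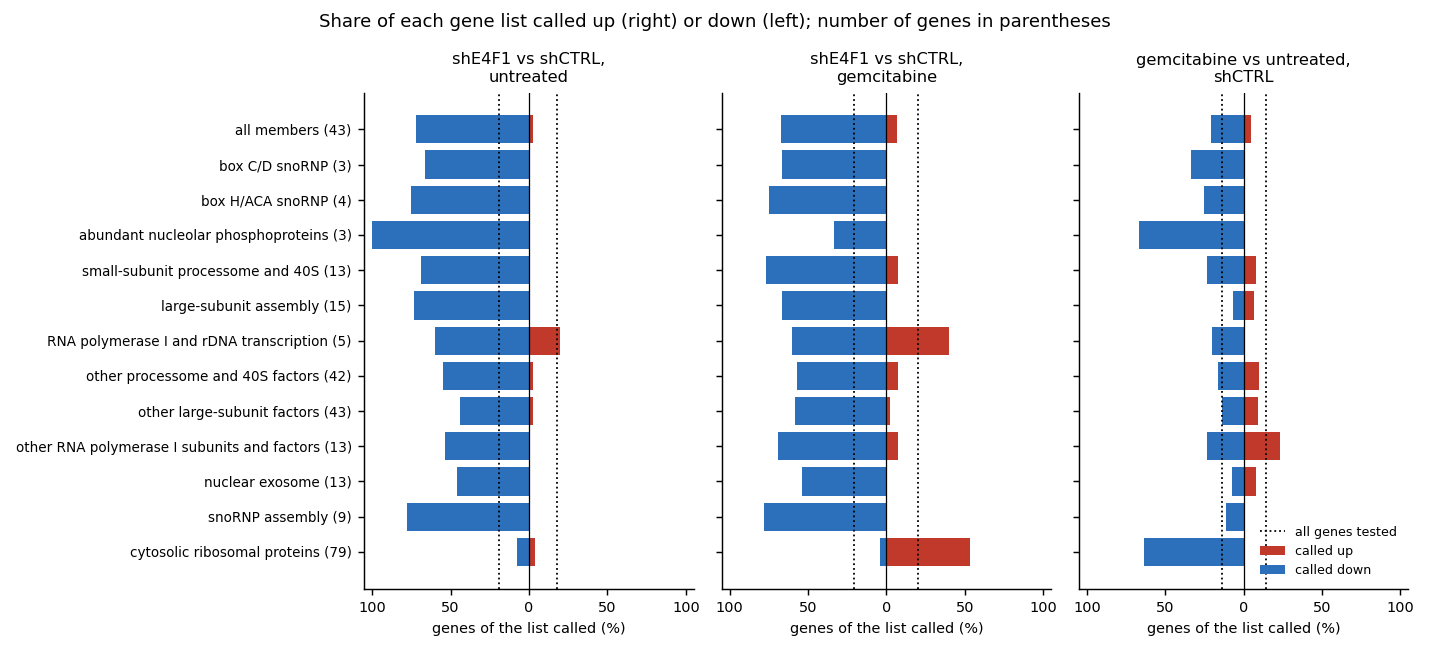
Percentage of each gene list called up (right) or down (left) at an adjusted p under 0.05 in 3 deposited comparisons, with the number of genes in parentheses and dotted lines at the percentages over all genes tested. The member groups and the other biogenesis lists extend mainly to the left in both knockdown panels. Some also extend to the right, furthest the RNA polymerase I group, with 1 of 5 genes up untreated and 2 of 5 under gemcitabine. The 79 ribosomal protein genes extend to the right in the knockdown panel under gemcitabine (42 up) and to the left with gemcitabine in shCTRL cells (50 down). The panels with 42 up and 50 down share the shCTRL gemcitabine libraries.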

How the data were processed

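Per the submitters' processing notes, the authors worked on the build GRCh38.p7 with TopHat2 2.1.1, Bowtie2 2.2.9, FastQC and bcl2fastq, counted with HTSeq 0.9.0, and compared groups with DESeq2 1.14.1 in R 3.4.0. Annotation, strand setting, filters and design formula: not given in the sources used here. Per the file headers, the columns of the 4 deposited tables are the mean normalized count (a signal averaged over the compared libraries, not a count per library), a log2 fold change with its SE, a Wald score, and a p-value with its adjusted p-value. The authors' version of DESeq2 by default moderates fold changes of low genes towards 0. The 12 columns of the deposited count table match no label and were not used, so depth per library is unknown here and precision is given by the SE.

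The gemcitabine effect in shE4F1 cells and the difference of knockdown effects were computed from the tables with summed variances and a two-sided normal test. Python 3.11.15, numpy 2.4.6, pandas 2.3.3 and scipy 1.17.1 were used. Both tests were also run on simulated effects, with independent normal noise of the deposited SEs. That run checks the calculation only. It leaves out the shared shCTRL untreated libraries and cannot show how well the SEs describe these libraries. The knockdown table under gemcitabine and the gemcitabine table in shCTRL cells add up to the table of both changes with deviations of at most 0.1 (log2) in 42 of 43 members (all but PPAN) and in 93.4% of 20913 genes. Alternatives were another adjustment, a mean of at least 50, centring on the median, an adjusted p under 0.01, and another route through the tables.

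Members and lists were chosen with earlier results of these data known. The rule was to name members called with a change of at least 1 (log2), called for the difference, called in opposite directions, or extreme in their role group. Some of them are given by a ratio alone. Other pathway genes were named from those with changes of at least 1.5 or extreme in their list. Not every such gene or comparison is given, and most stand as a ratio alone. Positions, exon lengths and snoRNA hosts come from GENCODE release 29 (GRCh38).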

Additional observations from a re-analysis of the deposited data

Results flagged for a closer look

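For 5 members the knockdown effect under gemcitabine differed from that in untreated cells in the test of the difference itself. The difference was 0.84 on the log2 scale for DKC1, 0.58 for NCL, 0.53 for NPM1, 0.61 for NOP14 and 0.60 for WDR43. All 5 were among the 9 members that fell with gemcitabine in shCTRL cells. The difference and that table share the shCTRL libraries of both conditions, so the overlap is not independent of the test. Of the 5, 3 (DKC1, NCL and WDR43) host snoRNAs.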

How the results depend on the processing

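Over the 43 members, the 6 comparisons and the alternatives listed under the processing, 1118 settings were computed: 1054 kept the call, 58 lost it, 6 gained it and none changed direction. The settings that kept it include results not called at the outset, which had no call to lose. All 43 members are of that kind for the gemcitabine effect in shE4F1 cells. The 58 losses therefore weigh more among the called results than the total shows. At an adjusted p under 0.01 the members that rose went to 0 with the hairpin untreated and to 1 with gemcitabine in shCTRL cells, and 1 difference of knockdown effects, that of DKC1, was called. Centring on the median gave 4 members up with gemcitabine in shCTRL cells and 2 differences of knockdown effects. It also ended the untreated knockdown call of NOP14, RRP1 and POLR1C (adjusted p = 0.0710, 0.0521 and 0.0509). Taken as the table of both changes minus the gemcitabine table, the knockdown under gemcitabine had 14 members down and 0 up; that route counts the variance of the shCTRL untreated libraries, which cancel, in both tables, which widens the SE by construction. No paired analysis was possible because the values used are comparison tables and the count columns carry no sample label; for the same reason no library could be left out. The count-based alternatives were not run. Depth limits PPAN most, with a mean normalized count of 81.7 and an SE of 0.38 untreated.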
